A study of Mus musculus with 10 samples.

Results

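Several genes that act in nearly every cell have a second copy whose use is mainly limited to the testis. The 7 genes described here are such copies: the ADP/ATP carrier gene Slc25a31, the ribosomal protein gene Rpl10l, the alpha-tubulin genes Tuba3a and Tuba3b, the general transcription factor gene Taf7l, the bromodomain gene Brdt and the zinc finger gene Ctcfl. They were chosen by name, as testis copies of widely expressed genes, with earlier results of these data known. All 7 were among the 30460 genes listed in each library. The series holds 10 RNA libraries from C57BL/6 mouse embryonic stem cells, read on the Illumina HiSeq4000, of 4 genotypes: wild type (n = 3), Mga-/- (n = 3), L3mbtl2-/- (n = 2) and Pcgf6-/- (n = 2). The labels name no other allele, drug or time point, and do not say how the alleles were made or whether replicates were separate clones or cultures. The p-values therefore cover the spread between these libraries alone, and that spread may be technical.

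MGA, L3MBTL2 and PCGF6 are subunits of one variant Polycomb repressive complex, which is known in embryonic stem cells for keeping genes of the germ line silent. Its subunits reach DNA partly through MGA, which binds E-boxes with its partner MAX and also has a T-box domain, and partly through a factor of the E2F family. In the testis, copies such as these 7 are used in spermatogonia, spermatocytes or spermatids, beside or in place of their widely expressed relatives. Mice lacking Slc25a31, Rpl10l, Taf7l or Brdt are known for defects of spermatogenesis.

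The values are FPKM, reads per kilobase of gene, scaled to library depth, so levels can be compared between genes. Depth, from whole reads recovered from the FPKM steps, lay between 19370037 and 26726636 reads per library. The pluripotency markers were present in all 10 libraries (10 of 10 listed, summed level 2472 to 2674 FPKM in wild type and 3455 to 4277 FPKM in the knockouts). L3mbtl2 stood at 3.72 and 3.49 FPKM in its own knockout against 19.8 to 20.5 FPKM in wild type, and Pcgf6 at 9.56 and 9.82 FPKM against 27.6 to 29.7 FPKM. Wild type libraries held 17.1 to 19.7 FPKM of Mga, and the Mga knockout libraries 1, 2 and 3 held 8.03, 19.6 and 11.2 FPKM. The level in the library labelled Mga knockout replicate 2 lies within the wild type range, so the fitted differences of the Mga group from wild type are also given without it. The fitted difference of Mga in its group was -0.61 (adjusted p = 0.0987), and -0.95 without that library (adjusted p = 0.000691). A transcript level alone does not give the genotype, and the labels do not describe the alleles. Slc25a31 and Tuba3a were high in that library, as in the rest of its group. The Mga libraries differed more from each other than those of the other groups: the median SD over genes was 0.338 on the log2 scale, against 0.064 to 0.086 in the other 3 groups. In bulk RNA, fewer cells that express a gene and less RNA per cell cannot be told apart.

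Promoter sequences, taken from RefSeq on the build GRCm38.p6, matched 6 of the 7 genes, and Ctcfl had no match. They are shown because every one of these 6 windows, which run from 250 bases before to 50 bases after the RefSeq start, held a match to the letters of an E-box, E2F or T-box motif. The letters searched, on both strands, were CACGTG (E-box, which reads the same on both strands), GCGGGAA (E2F, TTCCCGC on the other strand) and AGGTGTGA (T-box, TCACACCT on the other strand), and no 2 of the matches overlapped. Each line below runs 5′ to 3′ on the strand of the gene, with the matches in capitals, and bases that GENCODE M21 places inside the gene were left out. For Tuba3b, whose match lies inside the gene as GENCODE M21 bounds it, only the 30 bases around the match are given.
Slc25a31 (chr3:40708621-40708854, plus strand): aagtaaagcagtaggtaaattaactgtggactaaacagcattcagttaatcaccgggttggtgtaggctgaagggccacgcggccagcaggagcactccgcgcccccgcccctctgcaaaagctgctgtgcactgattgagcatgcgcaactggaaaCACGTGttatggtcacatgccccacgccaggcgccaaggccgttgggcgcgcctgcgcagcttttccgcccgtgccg
Rpl10l (chr12:66284402-66284651, minus strand): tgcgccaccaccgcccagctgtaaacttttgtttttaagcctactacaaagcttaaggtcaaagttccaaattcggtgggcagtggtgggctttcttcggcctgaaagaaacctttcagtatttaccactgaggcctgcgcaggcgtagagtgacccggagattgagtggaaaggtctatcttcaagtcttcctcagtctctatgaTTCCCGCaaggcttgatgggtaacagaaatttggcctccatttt
Tuba3a (chr6:125286082-125286331, minus strand): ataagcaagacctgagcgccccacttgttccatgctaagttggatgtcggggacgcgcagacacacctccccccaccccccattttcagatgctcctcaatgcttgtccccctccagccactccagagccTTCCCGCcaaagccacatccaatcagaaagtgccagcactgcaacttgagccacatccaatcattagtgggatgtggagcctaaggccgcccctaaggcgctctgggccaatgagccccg
Taf7l (chrX:134476491-134476740, minus strand): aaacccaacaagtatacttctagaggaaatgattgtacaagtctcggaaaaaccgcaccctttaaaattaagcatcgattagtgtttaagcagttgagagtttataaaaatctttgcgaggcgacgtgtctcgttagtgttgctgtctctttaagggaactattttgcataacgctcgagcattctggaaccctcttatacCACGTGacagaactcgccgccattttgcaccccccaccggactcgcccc
Brdt (chr5:107330944-107331158, plus strand): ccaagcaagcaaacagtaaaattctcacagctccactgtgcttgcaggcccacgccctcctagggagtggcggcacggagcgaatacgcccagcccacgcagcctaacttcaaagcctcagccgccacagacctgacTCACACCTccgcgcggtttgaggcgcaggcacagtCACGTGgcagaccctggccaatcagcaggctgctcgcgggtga
Tuba3b (chr6:145615839-145615868, plus strand): ccagccactccagagccTTCCCGCcaaatt
The E-box letters lay at -93 to -88 relative to the RefSeq start of Slc25a31, at -49 to -44 for Taf7l and at -78 to -73 for Brdt. Brdt also held the T-box letters at -113 to -106. The E2F letters lay at -44 to -38 for Rpl10l, at -120 to -114 for Tuba3a and at -107 to -101 for Tuba3b, and Slc25a31 had them at 19 to 25 bases past its start, outside the part shown. Of all 32817 promoter windows of this length, 7.15% held the E-box letters, 4.60% the E2F letters, 1.27% the T-box letters and 12.4% at least 1 of the 3. The windows of the 6 genes held 22 (Slc25a31), 17 (Taf7l), 13 (Rpl10l), 12 (Tuba3a), 16 (Tuba3b) and 23 (Brdt) CpG dinucleotides, against a median of 7 over all windows. The share of all windows with fewer ran from 60.4% (for Tuba3a) to 78.5% (for Brdt). The motif shares of all windows were not matched for CpG, which the E-box and E2F letters contain. A match describes the letters in these windows and was not tested for binding.

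The question put to the libraries was how far each of the 7 genes was expressed once a subunit was lost. All 7 had a higher level in every library of every knockout group than in any wild type library. The share of all genes set apart in this way was not counted. Most of their 11 widely expressed relatives were set apart from wild type too, in either direction, so this is not particular to the 7 genes. The exceptions were Slc25a5 and Brd3 in Mga, Tuba1b in L3mbtl2, and Tuba4a and Brd3 in Pcgf6. Small differences can be set apart, as for Ctcf (-0.06 on the log2 scale) and Slc25a5 (-0.07) in Pcgf6. The 7 genes fell into 2 patterns. Slc25a31, Tuba3a and Tuba3b were far higher in the Mga group than in the L3mbtl2 or Pcgf6 group. Taf7l, Rpl10l, Brdt and Ctcfl stood in L3mbtl2-/- cells above the library labelled Mga knockout replicate 2 and below the other two libraries of that group. In the test across 15731 genes (limma on log2(FPKM + 0.1), Benjamini-Hochberg adjusted p under 0.05), all 7 rose in the Mga group, where 22.8% of all tested genes were called higher. In the L3mbtl2 group 6 of the 7 rose, against 23.4% of all genes, and in the Pcgf6 group 3 of the 7, against 5.45%. Tuba3b, Brdt and Ctcfl had no wild type library at the 0.5 FPKM that the filter asked of 2 libraries, so they entered the test only through the knockout groups. Earlier results were also known when the 7 were chosen, so these counts are a description. The 3 comparisons share the same wild type libraries and 1 spread per gene from all 10 libraries. The Mga libraries therefore enter the standard errors of the L3mbtl2 and Pcgf6 comparisons too. When only the libraries of the groups compared were fitted, Rpl10l, Tuba3b, Brdt and Ctcfl passed in Pcgf6 (adjusted p 0.000444 to 0.00109). That fit called 6878 of the 15731 genes in either direction, against 1584 in the main fit. Tuba3b then passed in L3mbtl2 (adjusted p = 0.000997), where 10591 genes were called in either direction, against 6297 in the main fit. With the library labelled Mga knockout replicate 2 left out, all 7 were called higher in each of the 3 comparisons, where 32.6%, 31.6% and 14.0% of all genes were.

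**Figure D1:**
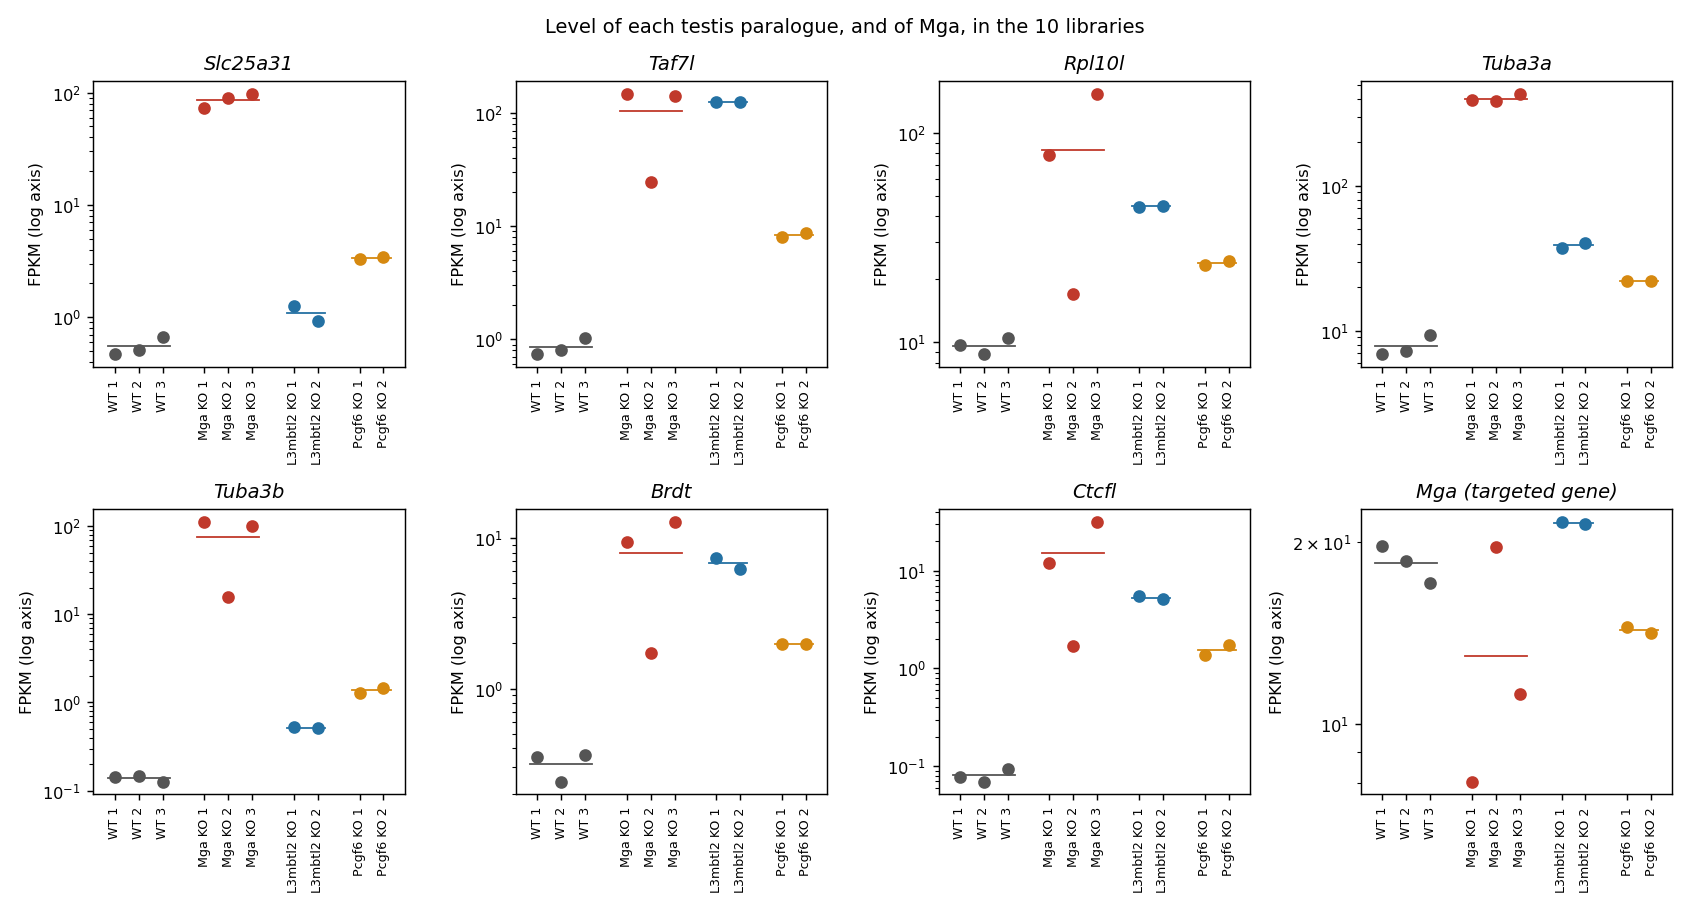
Level of each of the 7 testis copies, and of Mga, in FPKM on a log axis, with 1 point per library and a line at the group mean, for wild type (WT, n = 3), Mga (n = 3), L3mbtl2 (n = 2) and Pcgf6 (n = 2) knockout (KO) libraries. Slc25a31 and Tuba3a are high in all 3 libraries labelled Mga knockout, while the other 5 genes are lower in replicate 2, the library whose Mga level (19.6 FPKM) lies in the wild type range.

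Slc25a31 (ENSMUSG00000069041, chromosome 3, 40708855 to 40726096, plus strand, GRCm38) codes for the ADP/ATP carrier of the mitochondrial inner membrane that male germ cells use. Its level was 0.472, 0.510 and 0.671 FPKM in wild type, 73.4, 89.2 and 97.3 FPKM in the Mga libraries, 1.25 and 0.918 FPKM in L3mbtl2 and 3.30 and 3.47 FPKM in Pcgf6. The Mga libraries were thus all high, the L3mbtl2 libraries stood just above wild type, and no 2 groups overlapped. On the log2(FPKM + 0.1) scale it rose by 7.06 ± 0.17 (SE, n = 3 against 3, adjusted p = 8.82e-08) in the Mga group, a 157-fold ratio of means, and by 7.03 with the library labelled Mga knockout replicate 2 left out (adjusted p = 3.63e-07). The rise was 0.86 ± 0.19 in L3mbtl2 (n = 2 against 3, adjusted p = 0.00762) and 2.43 ± 0.19 in Pcgf6 (adjusted p = 0.000345). From the lowest to the highest, the order was wild type, L3mbtl2, Pcgf6 and Mga, and each neighbouring pair passed the test (Pcgf6 above L3mbtl2 by 1.57, adjusted p = 0.00135; Mga above Pcgf6 by 4.63, adjusted p = 5.92e-06). The L3mbtl2 call was lost in limma-voom on the recovered reads (adjusted p = 0.0991) and without L3mbtl2 replicate 1 (adjusted p = 0.0791), and it rests on 63 and 45 reads against 24, 29 and 38 in wild type.

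Rpl10l (ENSMUSG00000060499, chromosome 12, 66283379 to 66284401, minus strand) is an intronless copy of the X-linked ribosomal protein gene Rpl10 and is known to supply that protein of the large subunit during meiosis. It was the copy with the highest wild type level, at 9.69, 8.81 and 10.4 FPKM. The Mga libraries had 78.9, 17.0 and 153 FPKM, the L3mbtl2 libraries 44.4 and 44.9 FPKM and the Pcgf6 libraries 23.5 and 24.4 FPKM. All knockout libraries were above wild type, and the library labelled Mga knockout replicate 2 was lower than both the L3mbtl2 and the Pcgf6 libraries. Rpl10l rose by 2.60 ± 0.64 on the log2 scale in the Mga group (adjusted p = 0.0131) and by 2.20 ± 0.72 in L3mbtl2 (adjusted p = 0.0383), and its difference in Pcgf6 was 1.30 ± 0.72 (adjusted p = 0.292). With the library labelled Mga knockout replicate 2 left out, the Mga difference was 3.50 (adjusted p = 2.46e-05) and the Pcgf6 difference of 1.30 passed the test (adjusted p = 0.00704). Without replicate 3 the Mga difference was 1.92 (adjusted p = 0.0305). The L3mbtl2 call was lost in 9 of the 20 alternatives, among them each fit without 1 wild type library (adjusted p 0.0803 to 0.0910) or 1 L3mbtl2 library (0.147 in both). In the order wild type, Pcgf6, L3mbtl2 and Mga, no neighbouring pair passed the test with all libraries.

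Tuba3a (ENSMUSG00000067702, chromosome 6, 125278274 to 125286042, minus strand) codes for an alpha-tubulin, a subunit of microtubules, that is abundant in testis. It had 6.93, 7.26 and 9.32 FPKM in wild type and 389, 383 and 430 FPKM in the Mga libraries, the highest level that any of the 7 genes reached. The L3mbtl2 libraries had 37.5 and 40.6 FPKM and the Pcgf6 libraries 22.1 and 22.2 FPKM. No groups overlapped, and the library labelled Mga knockout replicate 2 was as high as its group. The rise was 5.67 ± 0.11 on the log2 scale in Mga (adjusted p = 2.78e-08), 2.31 ± 0.12 in L3mbtl2 (adjusted p = 1.28e-05) and 1.50 ± 0.12 in Pcgf6 (adjusted p = 0.000511). All 3 calls held in each of the 20 alternatives, and the rise in Mga was 5.70 when replicate 2 of that label was left out. The order was wild type, Pcgf6, L3mbtl2 and Mga, and each neighbouring pair passed the test (L3mbtl2 above Pcgf6 by 0.81, adjusted p = 0.00373; Mga above L3mbtl2 by 3.36, adjusted p = 2.30e-06).

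Tuba3b (ENSMUSG00000067338, chromosome 6, 145615757 to 145621479, plus strand) codes for a near-identical alpha-tubulin. Wild type libraries had 0.141, 0.148 and 0.127 FPKM, which are 6, 7 and 6 reads. The Mga libraries had 112, 15.8 and 99.3 FPKM, the L3mbtl2 libraries 0.522 and 0.514 FPKM and the Pcgf6 libraries 1.29 and 1.45 FPKM. Every Mga library, replicate 2 included, was above every library of the other groups, and the groups did not overlap. Tuba3b rose by 7.88 ± 0.63 on the log2 scale in Mga (adjusted p = 7.43e-05), a 545-fold ratio of means, and by 8.79 when replicate 2 of that label was left out (adjusted p = 2.88e-08). Its differences of 1.37 ± 0.71 in L3mbtl2 (adjusted p = 0.152) and 2.62 ± 0.71 in Pcgf6 (adjusted p = 0.0510) did not pass. Both passed with the library labelled Mga knockout replicate 2 left out (adjusted p = 0.000105 and 2.46e-05). The order was wild type, L3mbtl2, Pcgf6 and Mga, in which only Mga above Pcgf6 passed among neighbours (5.26, adjusted p = 0.00205), a call lost with only the groups compared (adjusted p = 0.0645) and in limma-voom (0.0522).

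The 2 tubulin genes share 97.0% of their aligned coding bases, and 12.3% of the 100-base windows of the Tuba3a transcript occur also in another gene. The labels do not say how reads that match both were counted, so the split between them is uncertain. In the library labelled Mga knockout replicate 2, Tuba3a stood at 383 FPKM and Tuba3b at 15.8 FPKM. In the promoter lines above, the E2F letters of both stand in the same run of letters, and the 250 bases before the starts are identical at 79.4% of 218 aligned bases. The other 5 genes shared few windows of 100 bases with other genes: none for Slc25a31, Rpl10l, Taf7l and Brdt, and 4.20% for Ctcfl. Several relatives shared far more, among them Rpl10 with 84.4% of its windows, Tuba1b with 73.0%, Tuba1a with 65.8%, Tuba1c with 53.4%, Tuba4a with 27.0% and Slc25a5 with 12.0%, so their counts, and each family share that rests on them, carry the same uncertainty.

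Taf7l (ENSMUSG00000009596, chromosome X, 134460118 to 134476490, minus strand) codes for a paralogue of TAF7, a subunit of the general transcription factor TFIID, that acts in male germ cells. Its wild type level was 0.745, 0.800 and 1.04 FPKM. The Mga libraries had 147, 24.5 and 143 FPKM, the L3mbtl2 libraries 126 and 126 FPKM and the Pcgf6 libraries 7.96 and 8.62 FPKM. The L3mbtl2 libraries lay inside the Mga range, between replicate 2 and the other two Mga libraries, and the Pcgf6 libraries were between wild type and all others. On the log2 scale Taf7l rose by 6.40 ± 0.59 in Mga (adjusted p = 0.000142) and by 7.05 ± 0.66 in L3mbtl2 (adjusted p = 0.000177), and the Mga value was 7.25 when replicate 2 of that label was left out (adjusted p = 3.56e-08). It rose by 3.14 ± 0.66 in Pcgf6 (adjusted p = 0.0220), a call lost in 7 of the 20 alternatives, including every fit without 1 wild type or 1 Pcgf6 library (adjusted p 0.0622 to 0.155). The Mga and L3mbtl2 groups differed by -0.65 ± 0.66 (adjusted p = 0.518), and by 0.20 with the library labelled Mga knockout replicate 2 left out (adjusted p = 0.269). In the order wild type, Pcgf6, Mga and L3mbtl2, the first 2 steps passed the test (Mga above Pcgf6 by 3.26, adjusted p = 0.0109). The last of these calls was lost with only the groups compared (adjusted p = 0.122) and without either Pcgf6 library (0.0812 and 0.0766).

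Brdt (ENSMUSG00000029279, chromosome 5, 107331159 to 107387058, plus strand) codes for the testis member of the BET family, proteins that bind acetylated histones through a pair of bromodomains. It had 0.352, 0.241 and 0.360 FPKM in wild type, 9.45, 1.74 and 12.8 FPKM in Mga, 7.34 and 6.26 FPKM in L3mbtl2, and 1.97 in both Pcgf6 libraries. All knockout libraries were above wild type, and the library labelled Mga knockout replicate 2 was the lowest of them. Brdt rose by 3.88 ± 0.61 on the log2 scale in Mga (adjusted p = 0.00183) and by 4.05 ± 0.69 in L3mbtl2 (adjusted p = 0.00243). The difference of 2.32 ± 0.69 in Pcgf6 did not pass (adjusted p = 0.0668). With the library labelled Mga knockout replicate 2 left out, these were 4.75 (adjusted p = 2.16e-06), 4.05 (adjusted p = 4.67e-06) and 2.32 (adjusted p = 0.000244). The order of the means was wild type, Pcgf6, L3mbtl2 and Mga, and no neighbouring pair passed the test with all libraries.

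Ctcfl (ENSMUSG00000070495, chromosome 2, 173093609 to 173119525, minus strand), also named BORIS, codes for the germ cell paralogue of the zinc finger DNA-binding protein CTCF. Wild type levels were 0.0780, 0.0698 and 0.0935 FPKM, or 6, 6 and 8 reads. The Mga libraries had 11.9, 1.68 and 31.6 FPKM, the L3mbtl2 libraries 5.46 and 5.10 FPKM, and the Pcgf6 libraries 1.38 and 1.73 FPKM. The library labelled Mga knockout replicate 2 lay between the 2 Pcgf6 libraries, and replicate 3 was the highest of all. The rise was 5.61 ± 0.84 in Mga (adjusted p = 0.00144) and 4.90 ± 0.94 in L3mbtl2 (adjusted p = 0.00428) on the log2 scale, and both were lost in limma-voom on recovered reads (adjusted p = 0.0647 and 0.0989). In Pcgf6 the difference of 3.19 ± 0.94 did not pass (adjusted p = 0.0665). With the library labelled Mga knockout replicate 2 left out, the 3 differences were 6.76 (adjusted p = 7.72e-06), 4.90 (adjusted p = 3.88e-05) and 3.19 (adjusted p = 0.000947). Without replicate 3 the Mga difference was 4.68 (adjusted p = 0.00259). The order of the means was wild type, Pcgf6, L3mbtl2 and Mga, with no neighbouring pair past the test. The library kit does not mark strand, and the antisense gene Ctcflos overlaps Ctcfl, so reads of both cannot be told apart. Ctcflos had at most 0.00737 FPKM in wild type, 0.656, 0.0567 and 1.77 FPKM in Mga, 0.264 and 0.315 FPKM in L3mbtl2 and 0.00844 and 0.0405 FPKM in Pcgf6.

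**Figure D2:**
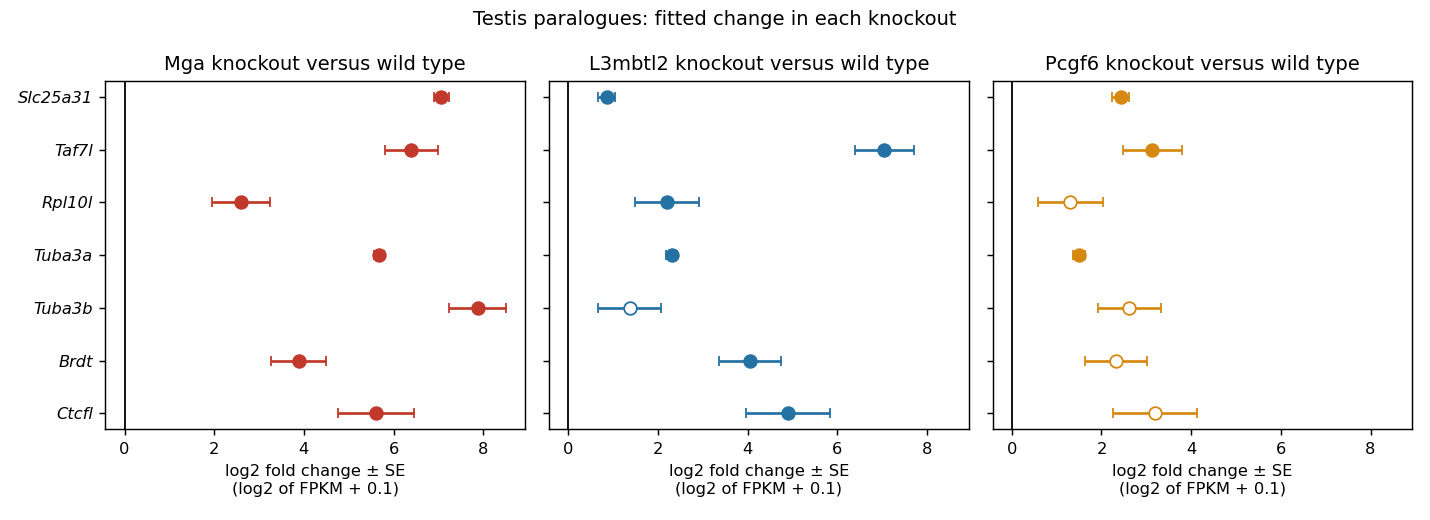
Fitted change of each testis copy in the Mga, L3mbtl2 and Pcgf6 knockout groups against wild type, as the log2 fold change of FPKM + 0.1 with its standard error; filled circles passed an adjusted p of 0.05 and open circles did not. Tuba3b in L3mbtl2 (1.37) and Rpl10l, Tuba3b, Brdt and Ctcfl in Pcgf6 are open, and Slc25a31 changes from 7.06 in Mga to 0.86 in L3mbtl2 while Taf7l stays at 6.40 and 7.05.

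Between the knockout groups, 3 genes were higher in Mga than in L3mbtl2 (Slc25a31 by 6.20, adjusted p = 1.17e-06; Tuba3a by 3.36; Tuba3b by 6.50, adjusted p = 0.000518, or 0.0595 in limma-voom), where 10.9% of all genes were called higher. Rpl10l, Taf7l, Brdt and Ctcfl did not pass there (0.40, -0.65, -0.17 and 0.71, adjusted p 0.518 to 0.881). With the library labelled Mga knockout replicate 2 left out, Rpl10l (1.30), Brdt (0.69) and Ctcfl (1.86) passed too, so that 6 were higher, where 18.6% of all genes were. Without replicate 3 in its place, Rpl10l (-0.29) and Ctcfl (-0.22) pointed the other way. Against Pcgf6, 4 genes were higher in Mga: Slc25a31, Tuba3a, Tuba3b and Taf7l, where 12.0% of all genes were called higher. All 7 were higher without replicate 2, where 25.2% of all genes were. Between L3mbtl2 and Pcgf6, Taf7l (3.91, adjusted p = 0.00559) and Tuba3a (0.81) were higher in L3mbtl2 and Slc25a31 was lower (-1.57), where 30.5% of all genes were called in either direction. With the library labelled Mga knockout replicate 2 left out, all 7 passed in this comparison, where 46.8% of all genes did, with Slc25a31 and Tuba3b (-1.25) higher in Pcgf6 and the other 5 higher in L3mbtl2.

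The spread of the 3 Mga libraries was unequal among the 7 genes. In Slc25a31 the mean was 86.6 ± 12.2 FPKM (SD, n = 3) and in Tuba3a 401 ± 25.9 FPKM. For the other 5 genes the SD was a large part of the mean, with 75.6 ± 52.2 FPKM for Tuba3b, 105 ± 69.6 for Taf7l, 83.1 ± 68.3 for Rpl10l, 8.01 ± 5.69 for Brdt and 15.1 ± 15.2 for Ctcfl. Relative to the wild type mean, the library labelled Mga knockout replicate 2 stood at 176% for Rpl10l and 546% for Brdt, so these 2 were the least raised in it. The L3mbtl2 libraries had 39.0 ± 2.16 FPKM of Tuba3a and 126 ± 0.481 FPKM of Taf7l (SD, n = 2). The Pcgf6 libraries had 22.1 ± 0.108 FPKM of Tuba3a and 8.29 ± 0.471 FPKM of Taf7l (SD, n = 2). The Mga level of that library goes together with these lower values, and its part in them was not tested.

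The widely expressed relatives of the same families did not rise as a group. Of the 11 relatives, all tested, 3 rose and 5 fell in Mga, 1 rose and 4 fell in L3mbtl2, and 1 rose and none fell in Pcgf6, where 4.62% of all genes were called lower (16.7% in each of the other 2). The Pcgf6 counts ran from 0 to 4 higher and 0 to 3 lower over the 20 alternatives. Their median differences were -0.14, -0.19 and -0.02 on the log2 scale, where the medians of all tested genes were 0.10, 0.13 and 0.04. Rpl10, the X-linked parent of Rpl10l, had 638 to 654 FPKM in wild type, 303, 416 and 300 FPKM in Mga, 302 and 312 FPKM in L3mbtl2 and 483 and 485 FPKM in Pcgf6. It fell by 0.95 in Mga (adjusted p = 0.000613) and by 1.08 in L3mbtl2 (adjusted p = 0.000592), and every knockout library was below wild type. Tuba1a, an alpha-tubulin of many tissues, fell by 1.01 in Mga (adjusted p = 0.00369) and by 1.21 in L3mbtl2 (adjusted p = 0.00269). In Mga, Tuba4a fell by 0.81 (adjusted p = 0.00856) and Tuba1b by 0.48 (adjusted p = 0.0244), a call lost in 5 of the 20 alternatives (adjusted p up to 0.0819), and Tuba1c rose by 0.35 in Mga and fell by 0.64 in L3mbtl2. Among the carriers, Slc25a4 fell by 0.58 in Mga (adjusted p = 0.0129) and Slc25a5 by 0.66 in L3mbtl2 (adjusted p = 0.00312). Taf7 rose by 0.49 in Mga (adjusted p = 0.00168) and by 0.37 in Pcgf6 (adjusted p = 0.0308), and the Pcgf6 call was lost in 9 of the 20 alternatives (adjusted p up to 0.248). Brd2, a BET protein found in most cells, rose by 1.05 in Mga (adjusted p = 0.000201) and by 1.07 in L3mbtl2 (adjusted p = 0.000357), with 44.5 to 45.9 FPKM in wild type, 78.3 to 105 FPKM in Mga and 94.7 to 95.4 FPKM in L3mbtl2. Brd3 and Ctcf passed in none of the 3 comparisons, with differences between -0.15 and 0.13. Without replicate 2 of the Mga label, 3 relatives rose and 6 fell in Mga, where 22.5% of all genes were called lower. The differences were then -1.10 for Rpl10, -1.11 for Tuba1a, -1.05 for Tuba4a, -0.54 for Tuba1b, 0.33 for Tuba1c, -0.64 for Slc25a4, 0.49 for Taf7 and 1.19 for Brd2, all of them called, and Slc25a5 (-0.27, adjusted p = 0.00167) was called too.

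**Figure D3:**
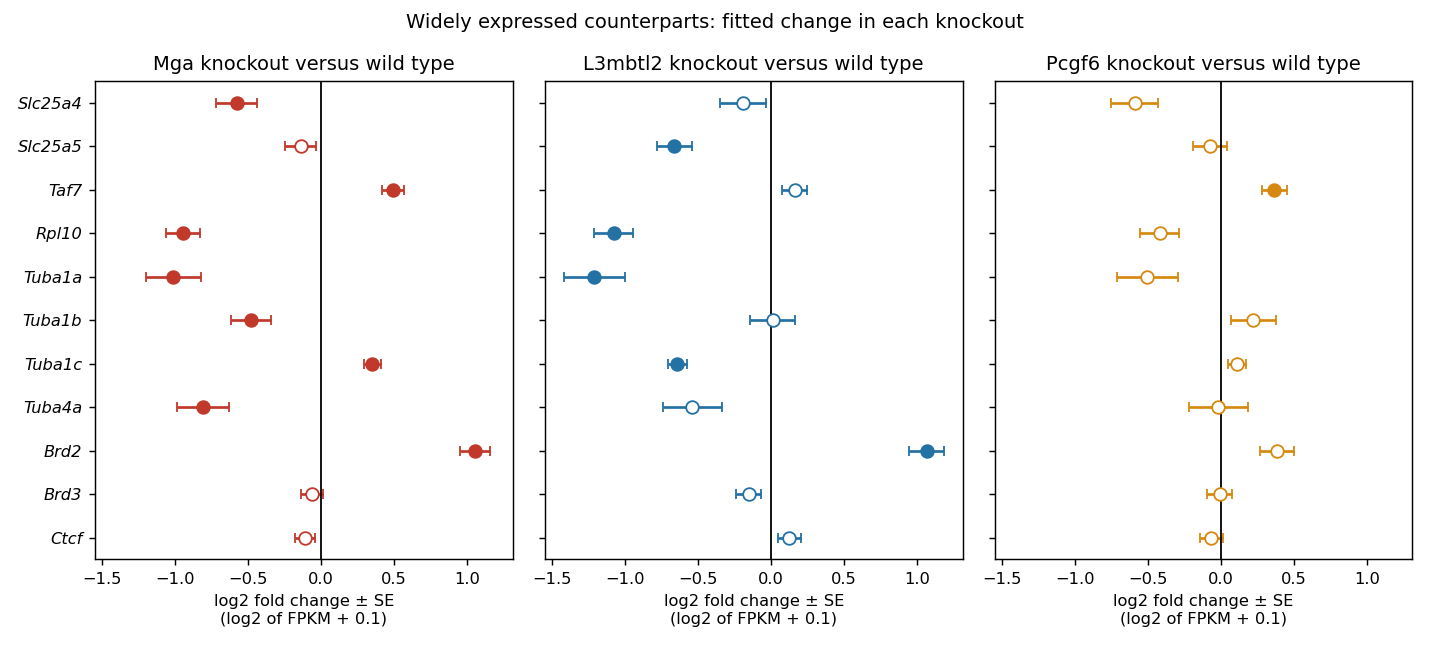
Fitted change of the 11 widely expressed relatives in each knockout against wild type, as the log2 fold change of FPKM + 0.1 with its standard error; filled circles passed an adjusted p of 0.05. All differences lie between -1.21 (Tuba1a in L3mbtl2) and 1.07 (Brd2 in L3mbtl2).

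Since FPKM is scaled by length, each copy can be set against its family as a share of summed FPKM, taking the family as the genes named above. In wild type the copies held little: 0.122% of the ADP/ATP carriers for Slc25a31, 0.463% of the alpha-tubulins for Tuba3a and Tuba3b together, 1.47% for Rpl10l, 2.54% for Taf7l, 0.494% for Brdt (of the sum of Brd2, Brd3 and Brdt) and 0.222% for Ctcfl. Taf7l held 74.5%, 34.6% and 76.8% of its family in the Mga libraries and a mean of 77.2% in L3mbtl2, so it exceeded Taf7 in 4 of the 5 libraries, and it held 16.3% in Pcgf6. Ctcfl held 25.7%, 4.56% and 50.5% in the Mga libraries, 11.8% in L3mbtl2 and 4.30% in Pcgf6. Rpl10l held 20.7%, 3.91% and 33.8% in Mga, 12.7% in L3mbtl2 and 4.71% in Pcgf6. The tubulin pair reached 33.9%, 23.0% and 27.6% in Mga, against 2.83% in L3mbtl2 and 1.33% in Pcgf6. Slc25a31 reached 16.6%, 16.4% and 22.1% in Mga but 0.350% in L3mbtl2 and 0.840% in Pcgf6. Brdt held 7.23%, 1.74% and 9.71% of the sum of Brd2, Brd3 and Brdt in Mga, 5.73% in L3mbtl2 and 2.47% in Pcgf6. These shares carry both changes, that of the copy and that of its relatives, which were lower for RPL10, the tubulins and the carriers in L3mbtl2. There the summed FPKM of copy and relatives stood at 351 for RPL10 against 656 in wild type, 1397 against 1727 for the alpha-tubulins and 310 against 451 for the carriers. The RPL10 sum was also lower in Mga (423) and Pcgf6 (508), and the carrier sum in Pcgf6 (403) but not in Mga (475). The alpha-tubulin sum was 1710 in Mga and 1770 in Pcgf6.

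**Figure D4:**
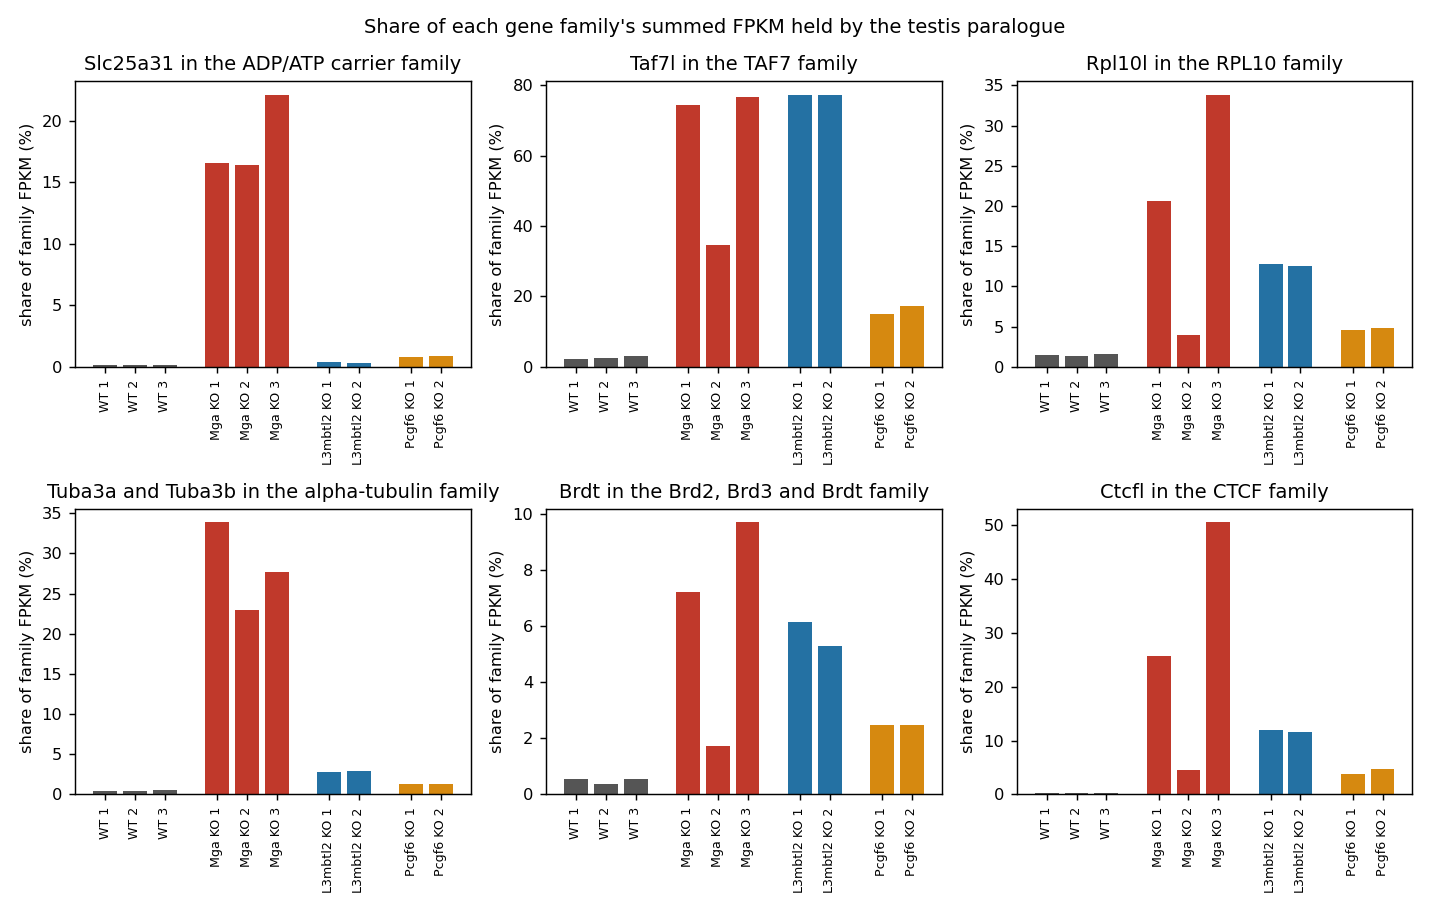
Share of each family's summed FPKM held by the testis copy in each of the 10 libraries, 1 bar per library, on axes that start at 0 and differ between panels. Taf7l holds over 70% in 4 libraries, Slc25a31 and the tubulin pair are high in the 3 Mga libraries and low elsewhere, and replicate 2 of the Mga group is low for Taf7l, Rpl10l, Brdt and Ctcfl.

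A wider list of testis copies, chosen from general knowledge with earlier results of these data known, did not move as one. Of 46 genes named, 41 were listed and 24 passed the filter, while 16 stayed under 0.5 FPKM in every library and 3 of these were at 0 in all. In Mga 9 rose and 1 fell, in L3mbtl2 5 rose and 2 fell, and in Pcgf6 3 rose and none fell, with medians of 0.83, 0.35 and 0.26 over the 24. The shares that rose were 37.5%, 20.8% and 12.5%, against 22.8%, 23.4% and 5.45% of all tested genes, so the L3mbtl2 share lay below that of all genes. Without replicate 2 of the Mga label, 16 rose and 2 fell in Mga, against 32.6% and 22.5% of all genes. D1Pas1, a testis DEAD-box helicase, rose in all 3 groups, by 3.85, 1.30 and 1.78, and Cox8c, a cytochrome oxidase subunit, by 4.02, 3.07 and 3.37. The Cox8c call in Pcgf6 was lost in 7 of the 20 alternatives (adjusted p up to 0.138). Nxf2, an RNA export factor, rose by 6.71 in Mga, from at most 0.233 FPKM in wild type to 25.7, 5.08 and 74.5 FPKM, a call lost in limma-voom (adjusted p = 0.0542). Without replicate 2 of that label the Mga differences were 7.74 for Nxf2, 4.06 for D1Pas1, 4.84 for Cox8c and 1.87 for Rpl39l, and without replicate 3 that of Nxf2 was 5.81. Rpl39l, another ribosomal protein copy, rose by 3.13 in L3mbtl2 and by 2.11 in Mga. Ldhc, the sperm lactate dehydrogenase, rose by 2.00 in Pcgf6 (adjusted p = 0.00920), with 0.309 to 0.450 FPKM in wild type and 1.83 and 1.76 FPKM in that knockout. Nxf2 and Ldhc had no wild type library at 0.5 FPKM, so they entered the test only through knockout libraries. Calr3 fell by 1.08 in Mga (by 0.88 without replicate 2), and Rps4l fell by 1.20 and Psma8 by 0.94 in L3mbtl2. The Psma8 call was lost in 10 of the 20 alternatives (adjusted p up to 0.161).

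For each of the 7 genes, the 3 tested genes with the most similar pattern were found by Pearson's r of log2(FPKM + 0.1) over the 10 libraries. The 7 genes themselves, genes without a symbol and predicted gene models (symbols of Gm and a number, or ending in Rik) were left out of this ranking. The libraries fall into 4 genotypes, so these values are a description. Slc25a31 was followed most closely by Tagap (r = 0.990), Tex12 (0.986) and Mlc1 (0.984), and Tex12, a synaptonemal complex gene of meiosis, stood at 134, 146 and 149 FPKM in Mga and at most 0.609 FPKM in wild type. Taf7l was closest to Tex101 (0.998), Neto2 (0.995) and Brd2 (0.993). Tex101, a germ cell surface protein gene, had 559, 53.4 and 551 FPKM in Mga, 319 and 329 FPKM in L3mbtl2 and at most 8.94 FPKM in Pcgf6. Rpl10l was closest to Ly6k (0.993), Creld2 (0.982) and Scp2 (0.981), and Tuba3a to Saa3 (0.990), Eng (0.988) and Triml2 (0.983). Tuba3b was closest to Pcdhga2 (0.993), Hdac3 (0.991) and Mlec (0.990). Brdt was closest to Ptpn20 (0.992), Rab29 (0.988) and Ccdc36 (0.986), and Ctcfl to Etv3 (0.991), Sptlc1 (0.987) and Mesd (0.987). Among the 7 themselves, r was highest between Brdt and Ctcfl (0.987) and between Taf7l and Brdt (0.979), and Slc25a31 paired with Tuba3b (0.972) and Tuba3a (0.951). It was lowest between Slc25a31 and Taf7l (0.603).

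The genes lie on chromosomes 2, 3, 5, 6, 12 and X, with Tuba3a and Tuba3b far apart on chromosome 6. Of the 20 tested genes within 100 kb of any of them, 5 rose and 1 fell in Mga, 6 rose and 3 fell in L3mbtl2, and 5 rose and none fell in Pcgf6. The 5 and 6 of 20 that rose in Mga and L3mbtl2 stand beside 22.8% and 23.4% of all tested genes, and the 5 of 20 in Pcgf6 beside 5.45%. Of the 20 alternatives, the Pcgf6 call was lost in 12 for Timm8a1, 9 for Ncapd2, 4 for Gm14453, 3 for Rbm38 and 2 for Rae1. The last 3 of these genes lie near Ctcfl. The medians of the 20 neighbours were 0.19, 0.28 and 0.11. In Mga, 8 rose and 2 fell when replicate 2 of that label was left out. Hspa4l, 18.4 kb from Slc25a31 on the same strand, rose by 1.38 in Mga (adjusted p = 0.000811) and by 1.26 in L3mbtl2 (adjusted p = 0.00201), with 0.768 to 0.795 FPKM in wild type and at most 2.54 FPKM in any knockout library. It was named after its values were seen, and its Mga difference was 1.57 without replicate 2. Near Ctcfl, Ctcflos rose by 2.56 in Mga (adjusted p = 0.0301), a call lost in 8 of 19 alternatives. Its difference was 3.54 without replicate 2 (adjusted p = 0.000479) and 1.75 without replicate 3 (adjusted p = 0.0742). Ctcflos passed the filter only through Mga replicates 1 and 3, and its reads cannot be told apart from those of Ctcfl. Vamp1 and Gm14453, which also rose in Mga, had no wild type library at 0.5 FPKM. The neighbour counts are therefore a description. No tested gene lay within 100 kb of Rpl10l or Tuba3b.

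Markers of other cells were read in the same libraries. Of 8 spermatid genes listed, 7 stayed under 0.5 FPKM in every library and 1 of these, the protamine gene Prm2, was at 0 in all, with a summed level of 0.165 to 0.345 FPKM in wild type, 0.295 to 2.20 in Mga, 2.05 to 2.27 in L3mbtl2 and 0.611 to 0.995 in Pcgf6. Spaca1, the only one tested, rose in Mga (2.38, or 3.24 without replicate 2 and 1.81, adjusted p = 0.0586, without replicate 3) and L3mbtl2 (3.52). Spaca1 had no wild type library at 0.5 FPKM, so it entered the test only through knockout libraries, and its rise is a description. The 8 genes of germ cells before meiosis summed to 95.1 to 98.4 FPKM in wild type, 385 to 586 in Mga, 264 in both L3mbtl2 libraries and 125 to 132 in Pcgf6. Of these 8, 4 rose and 1 fell in Mga, 2 rose and 3 fell in L3mbtl2, and 3 rose and 1 fell in Pcgf6, with a median of -0.27 in L3mbtl2 and 0.26 in Pcgf6. Dazl and Ddx4, RNA-binding proteins of germ cells, rose in all 3 groups (by 7.58, 5.95 and 2.28 for Dazl and by 4.14, 3.99 and 2.15 for Ddx4). Prdm1, a regulator of germ cell fate, fell in all 3, by 1.75, 2.51 and 1.27, and its Pcgf6 call was lost in 9 of the 20 alternatives. Without replicate 2 the Mga differences were 7.93 for Dazl, 4.15 for Ddx4 and -1.81 for Prdm1. Sertoli cell genes (6 listed) summed to 29.9 to 33.9 FPKM in wild type, 88.0 to 346 in Mga, 25.8 to 26.3 in L3mbtl2 and 296 to 299 in Pcgf6, and Rhox5 rose in Mga (2.83, or 3.48 without replicate 2) and Pcgf6 (3.33). Of the 5 tested, 2 rose and 1 fell in Mga, and 1 rose in each of L3mbtl2 and Pcgf6. All genes called higher were 22.8%, 23.4% and 5.45%. In Mga, Wt1 rose (1.34, adjusted p = 0.0388) and Sox9 fell (-1.34, adjusted p = 0.0432, or -0.86, adjusted p = 0.0659, without replicate 2). Amh and Inha were not called there. The 6 Leydig cell genes summed to at most 5.36 FPKM in any library. Fibroblast genes summed to 106 to 110 FPKM in wild type, 351, 99.6 and 119 FPKM in Mga, 90.7 to 93.2 in L3mbtl2 and 74.9 to 79.1 in Pcgf6, with none of 8 called (Col1a1 alone rose in Mga without replicate 2, by 1.37). Macrophage genes summed to 139 to 145 FPKM in wild type, 8.74 to 31.8 in Mga, 365 to 379 in L3mbtl2 and 186 to 189 in Pcgf6, and of the 7 that were tested all fell in Mga, with or without replicate 2, while 2 rose in L3mbtl2. The part of these marker levels in the changes of the 7 genes was not tested.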

How the data were processed

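Per the labels' protocols, RNA came from Trizol extracts and a NEBNext Ultra kit was used, which does not mark strand. The deposited values are FPKM per gene and library, made by the authors. Per the submitters' processing notes, Bowtie2 2.2.3, TopHat2 2.0.12, HTSeq 0.6.0 and the GRCm38 build were used. The scaling of the values was not given in the sources used here. Of 30460 gene identifiers, GENCODE M21 gave 30250 a symbol and 210 had none. Whole reads were recovered from the FPKM steps within 0.005 of a read, for 77.9% of genes above 0 at the annotated exon length and for 22.1% at a length found from the values. At 2 kb, 1 read was worth 0.0187 to 0.0258 FPKM. Reads are not independent molecules, and depth covers counting error only.

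One limma fit (limma 3.58.1 under R 4.3.3) took log2(FPKM + 0.1) of all 10 libraries, with group as its term and a prior variance trended on expression. The filter asked for 0.5 FPKM in 2 or more libraries and left 15731 genes, with Benjamini-Hochberg adjustment over all of them and a threshold of 0.05. Fold changes on this scale understate low genes. The fit was tested on simulated data with the same spread in every group, so that test does not cover the wider spread of the Mga libraries. Tried besides were 20 alternatives: other pseudocounts, filters, scalings and spreads, limma-voom on recovered reads, a replicate block, and leaving out each library. Replicate numbers did not pair the libraries: deviations of same-numbered libraries correlated at -0.0196 to 0.0349.

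Named genes are the 7 testis copies, 11 of their relatives (1 more is not reported here), the 3 targeted genes, up to 3 genes a direction with the smallest p in each other list and comparison with wild type, and the 3 genes most like each copy. The members, lists and tests were chosen with earlier results of these data known.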

Additional observations from a re-analysis of the deposited data

How the results depend on the processing

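In Mga against wild type, the 7 copies called stayed 7 in every alternative except limma-voom (6). In L3mbtl2 against wild type 6 became 3 with limma-voom and 4 to 7 when 1 library was left out. In Pcgf6 against wild type 3 became 2 with limma-voom and with a pseudocount of 1, 5 with a pseudocount of 0.01, 7 with a spread per group or only the groups compared, and 2 to 7 when 1 library was left out (5, 7 and 6 without the libraries labelled Mga replicate 1, 2 and 3). Mga against L3mbtl2 gave 3 to 6 when 1 library was left out (main 3), and Mga against Pcgf6 (main 4) gave 2 with only the groups compared and 3 to 7. L3mbtl2 against Pcgf6 (main 3) gave 7 with a spread per group or only the groups compared and 3 to 7 when 1 library was left out, with 7 without Mga replicate 2. The replicate block left the 6 counts at 7, 6, 3, 3, 4 and 3.

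Directions turned in Mga against L3mbtl2 when 1 library was left out: Taf7l ran from -1.09 to 0.20 (0.20 without Mga replicate 2), Brdt from -0.72 to 0.69 (0.69 without replicate 2), Rpl10l from -0.29 (without replicate 3) to 1.30, and Ctcfl from -0.22 (without replicate 3) to 1.86. They also turned for relatives near 0. Tuba1b in L3mbtl2 was -0.11 with median-of-ratios and -0.055 with upper-quartile scaling, and ran from -0.0065 to 0.033 when 1 library was left out (-0.0028 without wild type replicate 2). Tuba4a (-0.039 to 0.0067) and Brd3 (-0.026 to 0.0088) in Pcgf6 did so when 1 library was left out. The cause was not tested. Over all genes, Pcgf6 against wild type ranged from 157 to 7503 calls (main 1584), and the block gave 992. L3mbtl2 against wild type ranged from 2942 to 11110 (main 6297). Mga against wild type gave 3709 with a spread per group and 3994 with only the groups compared (main 6210). Mga against L3mbtl2 gave 593 with only the groups compared (main 3591), Mga against Pcgf6 198 (main 3550), and L3mbtl2 against Pcgf6 10429 with a spread per group (main 4803). Counts of the wider list of testis copies called higher, over all alternatives, ran from 7 to 16 in Mga (main 9), 1 to 12 in L3mbtl2 (main 5) and 0 to 12 in Pcgf6 (main 3). The groups have 2 or 3 libraries, and wild type levels of Tuba3b and Ctcfl rest on 6 to 8 reads.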
